A study of Mus musculus with 2 samples.

Results

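Collagen chains and the enzymes that modify collagen were followed across the expression arrays of the series. Members were the probe sets whose only gene symbol in the platform annotation named a collagen chain, a prolyl 4-hydroxylase alpha subunit (P4ha), a prolyl 3-hydroxylase (P3h), a lysyl hydroxylase (Plod), lysyl oxidase or a lysyl oxidase-like gene (Lox, Loxl), or the collagen chaperone gene Serpinh1. This gave 106 probe sets for 57 genes, of 18193 genes with a single symbol on the array. The genes comprised 42 collagen chains, 14 genes of the hydroxylase and oxidase families and 1 chaperone. RNA came from vascular cells flow-sorted out of the right lung lobes of C57BL/6J mice whose left lobe had been resected (pneumonectomy). One array was made from old and 1 from young mice, both after the operation, and the tissue was labelled mature lung. The old or young sample below is thus 1 array. The labels do not say how old the mice were, how long after surgery and by which markers cells were sorted, or how many mice each array stands for. Unoperated mice were not analysed here.

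Each value is a MAS5 signal, the summary brightness of a probe set on a linear scale, after both arrays had been scaled to a median log2 ratio of 0. Ratios are old minus young. A floor of 73.7 signal units, the higher of the medians of the arrays, marked the level below which values were treated as unordered. Where just 1 of the arrays reached the floor, a gene's fold is the bright signal over the floor and is written as at least that size. Where a gene had several probe sets, the one with the highest log2 signal averaged over the arrays stood for it, which need not be the brightest on either one. With 1 array per group there was no replicate check and no test, so genes were sorted by a fixed size of 2-fold. The number of arrays limits the precision. The only repeated measurement was the spread between probe sets of one gene, an SD of 0.42 in log2 ratio over 4514 genes, which describes the probes and not the mice. In bulk samples such as these, fewer cells of a type and less RNA per cell cannot be told apart.

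Collagens are secreted or membrane proteins whose chains wind into a triple helix of Gly-X-Y repeats. Fibril-forming chains build the tensile fibres laid down mainly by fibroblasts and other mesenchymal cells, whereas type IV chains form the sheet of the basement membrane on which endothelial cells sit. Inside the endoplasmic reticulum prolyl and lysyl hydroxylases modify the chains and the chaperone HSP47 holds the folded helix, and outside the cell lysyl oxidases cross-link the assembled matrix. Vessel growth in the lung involves both the making of new basement membrane and the remodelling of the fibrous matrix around it.

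Part of the marker values go against the lung label of the old sample. The liver sinusoidal genes Clec4g, Stab2 and Oit3 had signals of 41144, 24882 and 17451 there, against 792, 787 and 29.7 in the young sample, and the hepatocyte gene Alb had 8900 against 20.5. Sftpc and Scgb1a1 of lung epithelium, which a sort for vascular cells would remove, were below the floor in both samples. Every collagen ratio between the samples therefore compares arrays that also differ in liver genes, and age and this difference cannot be told apart. Hepatocyte markers were 2-fold or more higher in the old sample for 8 of 8 (sums 18712 and 137), and hepatic stellate markers for 4 of 7 and higher in the young for 1 (sums 3802 and 1354, Lrat below the floor in both). Liver sinusoidal endothelial markers were higher in the old sample for 5 of 6 (sums 150225 and 18802) and leukocyte markers for 5 of 7 (sums 10460 and 224). Lymphatic endothelial markers were higher in the young sample for 5 of 7 (sums 35086 and 64662). Lyve1, at 14902 in the old and 16120 in the young sample, is in both the lymphatic and the liver sinusoidal list. It makes up most of the young liver sinusoidal sum. Most of the old lymphatic sum came from Lyve1 and Flt4 (18035 in the old and 10262 in the young sample). Lung epithelial markers were higher in the old sample for 2 of 6 and in the young for 1 (sums 2846 and 386), with the defining genes as given above. Cartilage markers split, with 1 of 6 on each side (sums 440 and 1436) and Acan, Comp and Matn1 below the floor in both.

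Markers of other cell types differed between the samples too, and their part in the collagen values was not tested. All 10 endothelial markers were above the floor in both samples, 3 of them 2-fold or more higher in the old sample (Tek 5.91-fold, Esam 2.68-fold and Kdr 2.21-fold) and 1 in the young (Emcn 2.17-fold), with a summed signal of 111087 in the old and 75640 in the young sample. Fibroblast markers were 2-fold or more higher in the old sample for 4 of 10, with sums of 3872 and 356, but Pdgfra, Tcf21 and Scara5 were below the floor in both. Smooth muscle markers were higher in the old sample for 5 of 7 (sums 24081 and 346, Lmod1 below the floor in both). Pericyte markers were higher for 5 of 8 (sums 2745 and 256, Higd1b below the floor in both) and mesothelial markers for 6 of 6 (sums 12305 and 139). Of the fibroblast, smooth muscle, pericyte and mesothelial markers, those above the floor in the young sample were Dcn (103), Acta2 (118), Tagln (117) and Upk1b (88.0). Of the hepatic stellate markers, Ecm1 (753), Ngfr (342) and Angptl6 (96.0) were above it there.

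**Figure D1:**
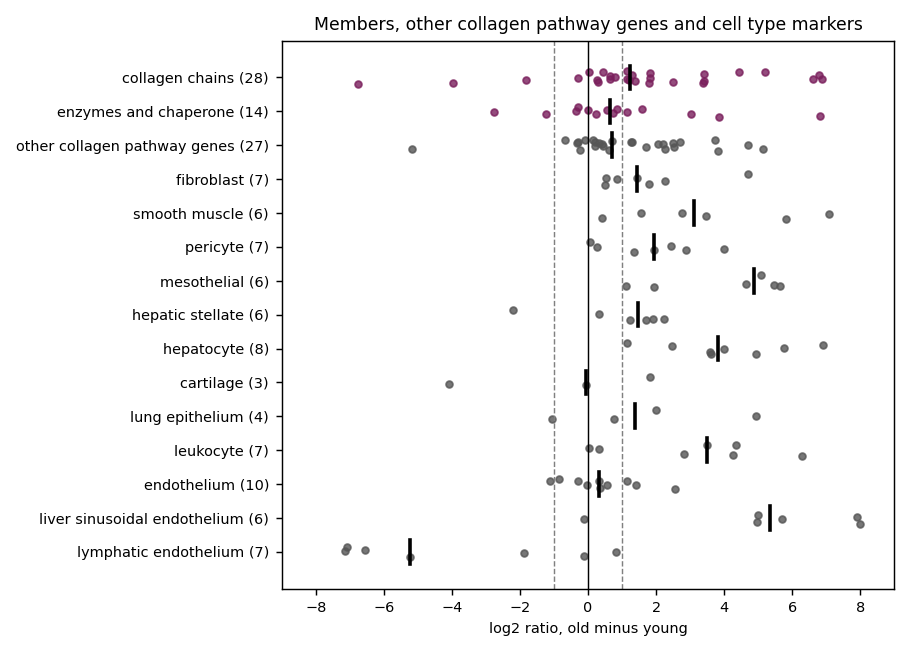
Log2 ratio (old minus young, x axis) of each measured gene, by list, with the number of measured genes in brackets; the black bar is the median of a list, vertical scatter only separates points, and dashed lines mark 2-fold. Collagen chains spread over both sides with a median of 1.24, endothelial markers have a median of 0.34 with 4 of 10 beyond 2-fold, and the lymphatic list is the one with a median far on the young side (-5.23).

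Collagen genes were counted on the old side in a larger share than the genes of the whole array. Of the 57 genes, 22 (38.6%) were 2-fold or more higher in the old sample, against 10.6% of all 18193 genes, and 5 (8.77%) were higher in the young sample, against 7.51%. The count on the young side was thus near that of the whole array. A gene that passed the floor only through the array on which it was high had to differ. Among the 24 members above the floor in both samples, 10 (41.7%) were 2-fold or more higher in the old sample, against 11.7% of 10004 genes. A further 4 (16.7%) were higher in the young sample, against 10.6%. The median log2 ratio of those 24 members was 0.76, beside -0.02 for all genes above the floor in both samples.

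The members lay unevenly about the floor. Of the 57 genes, 42 were above it in at least 1 sample, 16 of them in the old sample only and 2 in the young sample only, and 15 were below it in both. Over the 42 measured members the median log2 ratio was 1.13, beside 0.03 for 12105 genes of the array, of which 16% were 2-fold or more higher in the old and 11.3% in the young sample. Of the 42, 11 differed by 8-fold or more on the old side (3.82% of the 12105 genes) and 2 on the young side (1.33%). Only Col5a1, Col8a1 and P3h2 of the 11, and Col18a1 of the 2, were above the floor in both samples. The others passed it only through the sample in which they were high, so that their side was set. No 8-fold share was taken among genes above the floor in both samples. The genes below the floor in both samples were Col2a1, Col24a1, Col6a4, Col6a5, Col10a1, Col9a1, Col9a2, Col9a3, Col19a1, Col20a1, Col22a1, Col26a1, Col25a1, Col15a1 and P4ha3. Several of these, among them Col2a1, the type IX genes and Col10a1, are known from cartilage.

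**Figure D2:**
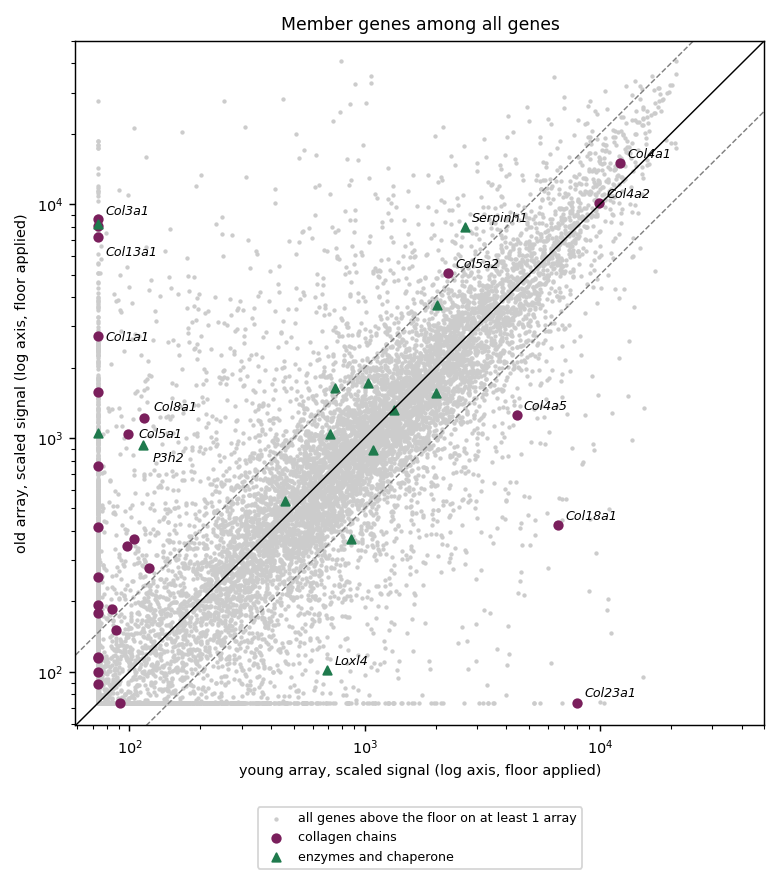
Scaled signal of each gene in the young (x axis) and old array (y axis), both log axes with values below the floor of 73.7 drawn at it; grey points are all 12105 genes above the floor in at least 1 sample, and dashed lines mark 2-fold. Col3a1, Col13a1 and Col1a1 stand on the left edge, below the floor in the young sample, Col23a1 lies on the bottom edge, and Col4a1 and Col4a2 lie close to the diagonal.

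Of 11 fibril-forming chains, 7 were 2-fold or more higher in the old sample, beside 10.6% of all 18193 genes, and 0 in the young. A further 2 were within 2-fold and 2 were below the floor in both. Of the 7, 5 were above the floor in the old sample only, so that their ratios are bounds and had to lie on that side. The median over the 9 measured was 3.40. It was 1.69 with a floor at the 75th percentile and 2.28 over the 2 chains above the floor in both samples. Col3a1, the chain of type III collagen of distensible tissues, had signals of 8671 in the old and 38.8 in the young sample, the latter below the floor, and was at least 118-fold higher in the old. Col1a2 and Col1a1 encode the chains of type I collagen, the main fibre of connective tissue. Col1a2 had signals of 8079 and 39.1, at least 110-fold higher in the old sample. Col1a1 had signals of 2732 and 18.7, at least 37.1-fold higher in the old sample. All these genes were far above the floor in the old sample and below it in the young.

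The chains of types V and XI, which sit in the core of fibrils and set their diameter, did not all follow. Col11a1 had signals of 1580 in the old and 38.9 in the young sample, at least 21.4-fold higher in the old. Col5a1 was above the floor in both, at 1037 and 98.6, a 10.5-fold difference. Col27a1, a fibril-forming chain best known from cartilage, had signals of 758 and 52.9, at least 10.3-fold higher in the old sample. Its second probe set was above the floor in both samples, at 432 and 79.4, and gave a smaller, measured difference of 5.44-fold. Col5a2 stood apart from these, with a young signal well over the floor. Its values were 5054 in the old and 2265 in the young sample, 2.23-fold higher in the old. The second Col5a2 probe set gave 825 and 435, a 1.90-fold difference and so within 2-fold. Col5a3 (88.3 and 55.9) and Col11a2 (34.2 and 90.8) were near the floor in both samples and within 2-fold.

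**Figure D3:**
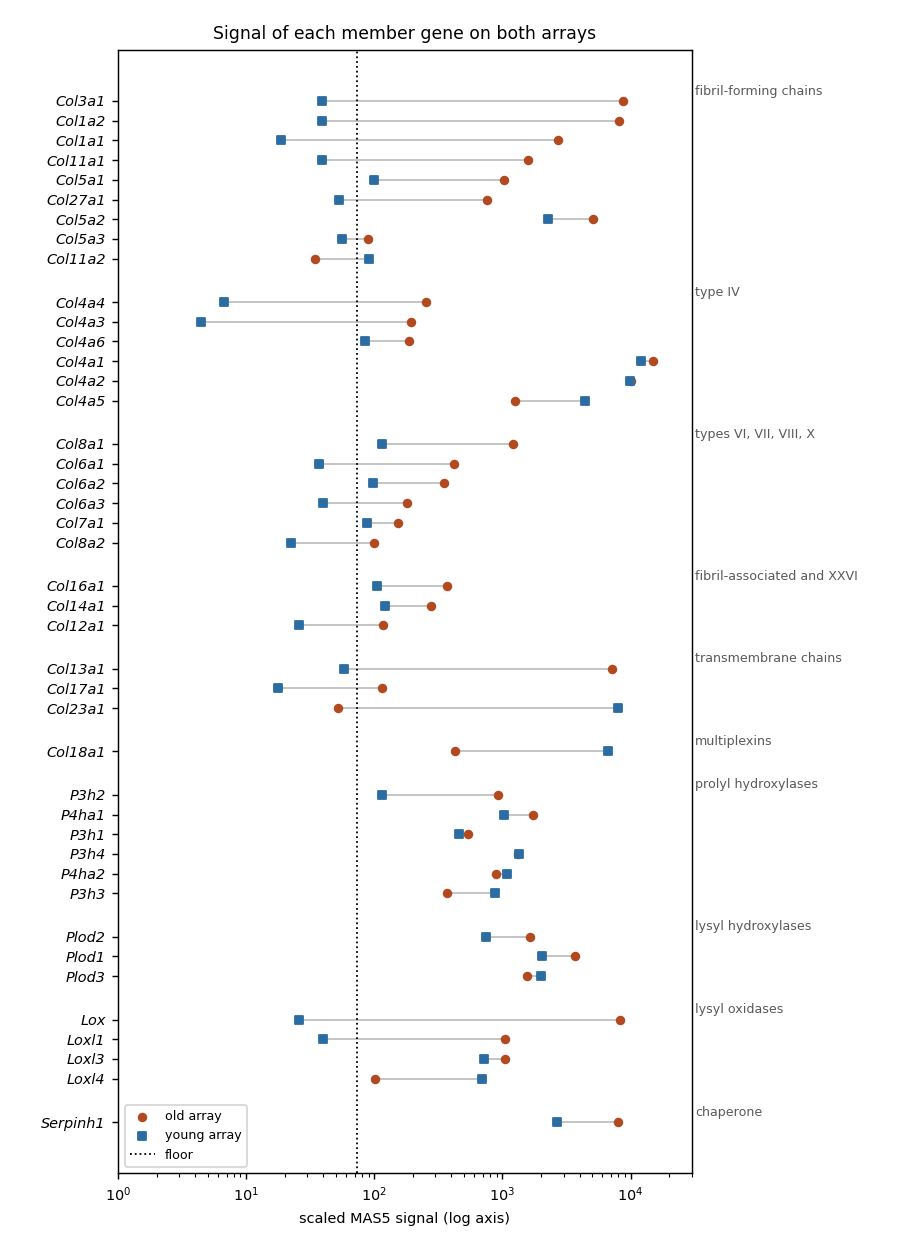
Scaled signal (x axis, log) of the 42 member genes above the floor in at least 1 sample, grouped by role; circles are the old and squares the young array, a grey line joins both, and the dotted line is the floor at 73.7. Col3a1, Col1a2, Col1a1, Col13a1 and Lox have their squares left of the floor and their circles far right of it, Col23a1 has the reverse, and the symbols of Col4a1, Col4a2 and P3h4 lie close together.

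Stretches from before the transcription starts of Col1a2 and Col3a1 are shown because these genes had the largest lower bounds among the fibril-forming chains. They were read from RefSeq on build GRCm38.p6, each beginning 250 bases before the start and running to 81 bases before it, outside annotated genes. Capitals mark the letters searched for on either strand. These were the CCAAT box, the TATAAA box, and the hypoxia-response core ACGTG with its variant GCGTG. Read on the other strand, the core becomes CACGT and the variant becomes CACGC. The Col1a2 stretch lies at chr6:4505368-4505537 on the plus strand and holds CCAAT from 109 to 105 bases before the start, with CACGT from 131 and from 87. The Col3a1 stretch lies at chr1:45311288-45311457 on the plus strand and holds TATAAA from 117 to 112 bases before the start.
Col1a2: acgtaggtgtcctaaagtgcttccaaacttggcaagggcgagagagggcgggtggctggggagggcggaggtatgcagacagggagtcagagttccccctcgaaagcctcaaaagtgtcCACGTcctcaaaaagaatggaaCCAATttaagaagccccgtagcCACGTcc
Col3a1: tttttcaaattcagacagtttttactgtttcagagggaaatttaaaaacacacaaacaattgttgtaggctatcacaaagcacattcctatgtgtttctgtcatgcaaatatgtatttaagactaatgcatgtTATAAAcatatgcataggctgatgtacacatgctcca
The stretches share none of the searched letters. A match describes letters and does not show a bound site.

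Type IV chains of the basement membrane went in different directions by chain. Of 6 chains, 3 were 2-fold or more higher in the old sample, beside 10.6% of all 18193 genes, and 1 in the young, beside 7.51%. A further 2 were within 2-fold. Of the 3, 2 were above the floor in the old sample only. Col4a1 and Col4a2 encode the chains of the type IV network found in nearly all vessels. Col4a1 had signals of 14941 in the old and 12145 in the young sample, a log2 ratio of 0.30. Col4a2 had signals of 10084 and 9914, a log2 ratio of 0.02. Both differences were smaller than the spread of 0.42 between probe sets of one gene, and the second Col4a1 probe set read -0.07.

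Col4a5, whose chain pairs with others in specialised basement membranes such as those of kidney and lung, was higher in the young sample. Its signals were 1248 in the old and 4420 in the young sample, 3.54-fold higher in the young, and its probe sets read -1.82 and -1.68. The other minor chains were low in both samples and lay on the old side. Col4a4 had signals of 255 and 6.65, at least 3.46-fold higher in the old sample. Col4a3 had 193 and 4.41, at least 2.61-fold higher, although its second probe set read at least 0.18. Col4a6 had 185 and 84.2, a 2.20-fold difference, with the young value close to the floor. The second Col4a6 probe set gave 114 and 16.7, at least 1.55-fold higher in the old sample.

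These type IV genes are arranged as neighbouring pairs in the mouse genome, with 0 protein-coding genes between the members of a pair in RefSeq. The pair Col4a1 and Col4a2 on chromosome 8 had log2 ratios of 0.30 and 0.02. The pair Col4a3 and Col4a4 on chromosome 1 had 1.39 and 1.79, both lower bounds. On chromosome X, Col4a5 and Col4a6 had opposite signs, at -1.82 and 1.14. Among other neighbours, Col6a1 and Col6a2 on chromosome 10 read 2.50 (a lower bound) and 1.83. Col3a1 and Col5a2 on chromosome 1 read 6.88 (a lower bound) and 1.16, so that adjacent fibril-forming chains differed widely in ratio.

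Of 9 chains of the beaded filament, the anchoring fibril and the short-chain networks on the array, 4 were 2-fold or more higher in the old sample. The share over all 18193 genes was 10.6%, and 2 of the 4 were above the floor in the old sample only. In the young sample 0 were higher, beside 7.51%, while 2 were within 2-fold and 3 below the floor in both. The median over the 6 measured, 3 of them above the floor in both samples, was 1.55. Col8a1, a network chain of vessel walls known from endothelial and smooth muscle cells, had signals of 1217 in the old and 115 in the young sample, a 10.5-fold difference. Its probe sets read from at least 0.41 to 3.40 in log2 ratio. Its partner chain gene Col8a2 had 99.4 and 22.2, within 2-fold when counted from the floor.

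Type VI collagen forms beaded microfilaments next to basement membranes from the products of Col6a1, Col6a2 and Col6a3. Col6a1 had signals of 417 in the old and 36.7 in the young sample, at least 5.66-fold higher in the old. Col6a2 had 346 and 97.6, a 3.55-fold difference, from a probe set of the shared-sequence kind (_x_at), and its other probe set read at least 2.93 in log2 ratio. Col6a3 had 179 and 39.7, at least 2.42-fold higher in the old sample. All 3 partner genes were thus on the old side, at moderate old signals and around or below the floor in the young sample. Col7a1, the anchoring fibril chain, was within 2-fold at 152 and 87.8.

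Fibril-associated chains decorate the surface of fibrils, and most of their genes were below the floor in both samples. Of 10 genes in this group, counting Col26a1 with them, 2 were 2-fold or more higher in the old sample, beside 10.6% of all 18193 genes. On the young side there were 0, beside 7.51%, with 1 within 2-fold and 7 below the floor in both. Col16a1 had signals of 370 in the old and 105 in the young sample, a 3.54-fold difference. Col14a1 had 277 and 121, a 2.30-fold difference, but its second probe set read at least 0.19. Col12a1 had 116 and 25.6 with the probe set that stood for it, at least 1.57-fold higher in the old sample. Another probe set, brighter in the old and dimmer in the young sample, gave 274 and 5.31, at least 3.71-fold higher (log2 ratio 1.89). The choice of probe set thus decided on which side of 2-fold Col12a1 was counted.

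Transmembrane collagens, which are anchored in the cell surface with a collagenous part outside the cell, held members at both ends of the range. Of 4 genes, Col13a1 was higher in the old sample, Col23a1 in the young, Col17a1 was within 2-fold from the floor (115 and 17.5) and Col25a1 was below the floor in both. Col13a1, known from cell-matrix adhesion sites, had signals of 7205 in the old and 57.8 in the young sample, at least 97.8-fold higher in the old, from a single probe set. Col23a1 had signals of 52.1 in the old and 7994 in the young sample, at least 108-fold higher in the young. Its other probe sets gave 52.5 and 17.3 in the old against 6000 and 6033 in the young sample. The 3 Col23a1 probe sets thus agreed in placing the gene below the floor in the old sample, with log2 ratios from -6.76 to -6.35.

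Of the multiplexins, basement membrane collagens that carry glycosaminoglycan chains, 1 of 2 was measured. Col18a1, whose C-terminal fragment is the angiogenesis inhibitor endostatin, had signals of 424 in the old and 6616 in the young sample, 15.6-fold higher in the young. Its second probe set, of the shared-sequence kind (_s_at), gave 189 and 4916, a log2 ratio of -4.70. Both probe sets were above the floor in both samples, so that this difference is no lower bound. Col15a1 was below the floor in both, at 50.9 and 25.9. The young-side genes Col23a1, Col18a1 and Col4a5 lay on the side of 5 of 7 lymphatic endothelial markers. Among these were Nts (27.2 in the old and 10414 in the young sample), Mmrn1 (74.6 and 10039) and Prox1 (60.6 and 6885). The other markers of that list were within 2-fold, Flt4 at 18035 and 10262 and Lyve1 at 14902 and 16120. A link between these collagen genes and the markers was not tested.

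Stretches before the starts of Col13a1 and Col18a1 are shown as examples of cell-surface and basement membrane collagens on opposite sides. Capitals mark the same searched letters. The Col13a1 stretch lies at chr10:61979207-61979358 on the minus strand, runs from 250 to 99 bases before the start, and holds TATAAA from 237 and CACGC from 156 bases before it. The Col18a1 stretch lies at chr10:77166611-77166780 on the minus strand, runs from 250 to 81 bases before the start of its longer gene model, and holds ATTGG, which is CCAAT on the other strand, from 210.
Col13a1: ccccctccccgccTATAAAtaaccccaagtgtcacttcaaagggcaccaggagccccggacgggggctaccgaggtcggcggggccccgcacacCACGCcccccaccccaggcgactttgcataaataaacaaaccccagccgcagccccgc
Col18a1: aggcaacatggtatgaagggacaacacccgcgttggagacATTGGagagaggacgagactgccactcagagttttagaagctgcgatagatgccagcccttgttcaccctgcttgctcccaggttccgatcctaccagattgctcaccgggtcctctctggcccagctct

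Prolyl hydroxylases were measured in both samples for 6 of 7 genes and mostly differed little. Of the 7, 1 was 2-fold or more higher in the old sample, beside 10.6% of all 18193 genes, and 1 in the young, beside 7.51%. A further 4 were within 2-fold and P4ha3 was below the floor in both. The median was 0.11, which turned to -0.02 without the scaling. P4ha1, the catalytic subunit that hydroxylates prolines to stabilise the helix, had signals of 1722 in the old and 1030 in the young sample, a log2 ratio of 0.74, with a second probe set at 1.04. P4ha2, an alternative catalytic subunit, had 891 and 1089, a log2 ratio of -0.29. These subunits were above the floor in both samples, unlike the type I and III chains they modify.

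The prolyl 3-hydroxylases differed from each other. P3h2, which is known to act on basement membrane collagens, had signals of 929 in the old and 114 in the young sample, 8.12-fold higher in the old. P3h3 had 371 and 870, 2.34-fold higher in the young sample. P3h1, the enzyme that works with Crtap on fibrillar chains, had 540 and 456, and P3h4, a family member without the catalytic activity, had 1323 and 1337. These last genes had log2 ratios of 0.24 and -0.02, inside the spread between probe sets.

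Lysyl hydroxylases prepare lysines for cross-linking and for sugar attachment. Of 3 genes, 1 was 2-fold or more higher in the old sample, beside 10.6% of all 18193 genes, and 2 were within 2-fold. Plod2, which hydroxylates the ends of the chains and so sets the type of cross-link, had signals of 1638 in the old and 748 in the young sample, 2.19-fold higher in the old, with its second probe set at 0.87 in log2 ratio. Plod1 had 3690 and 2033, a 1.81-fold difference. Plod3, which also adds glucose and galactose, had 1560 and 2015, a log2 ratio of -0.37. Plod2 was thus close above the 2-fold size and Plod1 close below it, and their ratios differed by less than the spread between probe sets. Serpinh1, the chaperone HSP47, had 7983 and 2672, 2.99-fold higher in the old sample, from a shared-sequence probe set (_x_at), with probe sets at 1.58 and 1.29.

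Lysyl oxidases had 2 of 4 genes 2-fold or more higher in the old sample, beside 10.6% of all 18193 genes. In the young sample 1 was higher, beside 7.51%, and 1 was within 2-fold. Both old-side genes were above the floor in the old sample only and had to lie on that side. Lox had signals of 8214 in the old and 25.9 in the young sample, at least 111-fold higher in the old. A second Lox probe set gave 3612 and 6.50, and another, at 55.7 and 12.3, was below the floor in both. Loxl1, needed for elastic fibre assembly, had 1055 and 39.8, at least 14.3-fold higher in the old sample, although its second probe set was below the floor in both at 43.8 and 4.38. Loxl3 had 1044 and 713, a log2 ratio of 0.55. Loxl4, a further family member, had 102 and 694, 6.82-fold higher in the young sample, and its second probe set gave 59.1 and 202. With the probe sets that stood for them, Loxl3 and Loxl4 were thus above the floor in both samples, and Lox and Loxl1 in the old sample only. The second Loxl4 probe set was below the floor in the old sample.

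The stretch before the start of Loxl4 is shown because it was the enzyme gene with the largest difference toward the young array. It lies at chr19:42612887-42613056 on the minus strand, runs from 250 to 81 bases before the start, and holds CACGC (capitals) from 162.
Loxl4: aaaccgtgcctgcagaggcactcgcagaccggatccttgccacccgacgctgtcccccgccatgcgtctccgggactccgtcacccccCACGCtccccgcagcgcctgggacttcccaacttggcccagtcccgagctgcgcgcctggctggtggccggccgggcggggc

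**Figure D4:**
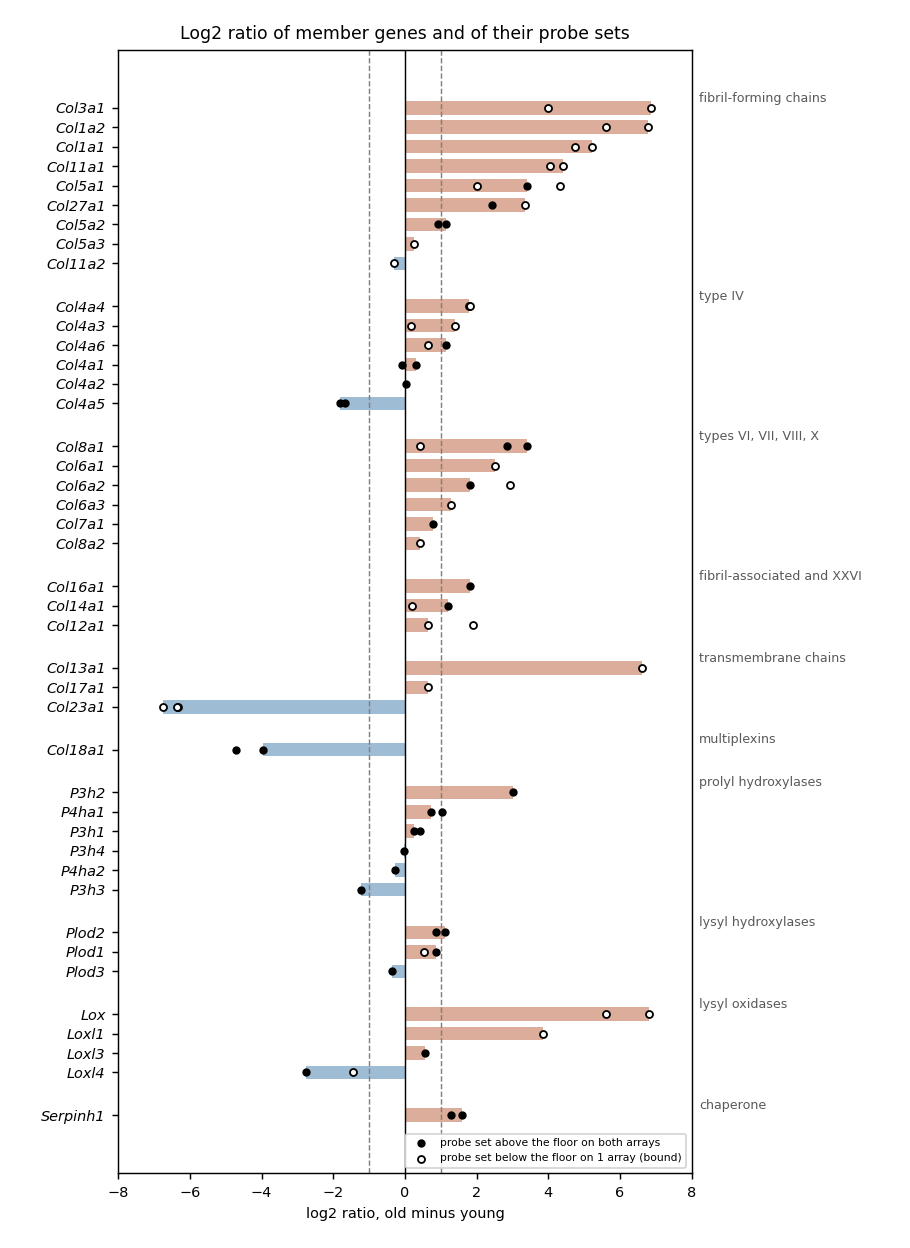
Log2 ratio (old minus young, x axis) of the 42 measured member genes as bars, with each of their probe sets as a point; filled points were above the floor in both samples, open points below it on 1 array and so are bounds, and dashed lines mark 2-fold. The 3 Col23a1 and both Col18a1 probe sets lie far on the young side, while the points of Col3a1, Col5a1 and Col8a1 include bounds of differing size.

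Among genes at 2-fold or more, probe sets of a gene agreed in sign. Of these 27 genes, 20 had several probe sets above the floor in at least 1 sample, and all 20 had the same sign in each of them. A probe set above the floor in 1 sample only had its sign set by which sample that was. Of the 20, only Col18a1, Col4a5, Col5a2, Plod2 and Serpinh1 had all measured probe sets above the floor in both samples. Genes within 2-fold were not counted here, such as Col4a1 with 0.30 and -0.07. Over the 9 member genes with several probe sets above the floor in both samples, the SD between probe sets was 0.27. Some calls depended on a choice. With the mean over probe sets Col14a1, Col4a3, Col4a6 and Plod2 came within 2-fold, and with a floor at the 75th percentile Col27a1, P3h2, P3h3 and Loxl4 did. Where a probe set was below the floor in 1 sample its ratio is a bound, and sizes could not be compared. Of the 106 probe sets, 70 were above the floor in at least 1 sample. Of those 70, 36 (51.4%) were 2-fold or more higher in the old sample, beside 14.2% of all 21644 measured probe sets, and 10 (14.3%) in the young, beside 10.6%. Most of the 36 were above the floor in the old sample only and had to lie on the old side. Some of the 10 were likewise above it in the young sample only.

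The searched promoter letters were found in the members at shares close to those of all genes. Sequence before the start was held for 42 of the 57 genes, and the search covered 250 bases before each start on both strands. The core ACGTG overlaps its own reverse wherever a C comes before it. The CCAAT box was found in 15 of 42 member genes (35.7%), against 37.5% of 27025 genes, and TATAAA in 6 (14.3%), against 14.3%. ACGTG, the core of the hypoxia response element, was found in 9 (21.4%), against 18.5%. Its variant GCGTG was found in 13 (31.0%), against 30.9%. P4ha1, P4ha2, P3h1, Plod3 and Col11a2 held both. By array side, GCGTG was in 3 of 14 genes higher in the old sample and 1 of 5 higher in the young. It was in 9 of 12 within 2-fold and 0 of 11 below the floor in both. In the same order, CCAAT was in 3, 2, 7 and 3 of these genes and TATAAA in 2, 0, 3 and 1. ACGTG was in 4, 0, 5 and 0. These counts are small and are given as a description.

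Of 36 listed genes of collagen making, reception and breakdown, 32 were on the array and 27 measured. Of the 27, 13 were 2-fold or more higher in the old sample, beside 16% of 12105 measured genes, 1 in the young, beside 11.3%, and 13 were within 2-fold, with a median of 0.71. Of the 13, 5 were above the floor in the old sample only. The list shares Dcn and Lum with the fibroblast markers. Several folding and export genes were within 2-fold, such as P4hb, the partner subunit of prolyl 4-hydroxylase (9093 in the old and 7972 in the young sample), Ppib (11052 and 8364), Crtap (4772 and 3837) and Colgalt1 (2729 and 3337). Sec23a, of the coat that exports procollagen, had 1818 and 2913. Mia3, the receptor that loads procollagen into carriers, had 2372 and 1541. Colgalt2, a collagen galactosyltransferase, was at least 5.81-fold higher in the old sample (428 and 65.4).

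Genes that process procollagen split. Pcolce, an enhancer of procollagen C-proteinase, had signals of 2619 in the old and 74.5 in the young sample, 35.1-fold higher in the old, with the young value just above the floor. Bmp1, the proteinase itself, had 459 and 415. Its relative Tll1 had 32.6 and 2650, at least 36.0-fold higher in the young sample. C-proteinase genes were thus measured in both samples, with Tll1 in the young sample only.

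Among collagen receptors, Itga1 had signals of 2533 in the old and 193 in the young sample (13.1-fold) and Ddr1 had 1570 and 343 (4.58-fold), whereas their partner or relative genes Itgb1 (3622 and 4566) and Ddr2 (85.3 and 63.5) were within 2-fold. Of the collagen-degrading genes, Mmp2 was 14.1-fold (3044 and 216), the cathepsin gene Ctsk 6.48-fold (500 and 77.1), Mmp14 4.19-fold (10991 and 2622) and the uptake receptor gene Mrc2 at least 3.27-fold higher in the old sample (241 and 6.76). Mmp13 was below the floor in both. Creb3l1, a transcription factor gene for type I collagen, was 5.62-fold higher in the old sample (482 and 85.7), while Sparc, a collagen-binding protein gene, was within 2-fold (32402 and 19802). The genes of both synthesis and breakdown thus held members on the old side.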

How the data were processed

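The authors deposited one MAS5 intensity per probe set and array, and MAS5 and GCOS 1.4 are named per the submitters' processing notes. Trimmed by 2% at either end, the deposited intensity averaged 500.003 in each sample. Of 45101 probe sets, 64 controls were left out. Genes were named from the platform annotation of 2016, in which 34958 probe sets had 1 symbol, 932 several and 9211 none. All 57 members matched current RefSeq names by Entrez identifier, and 0 changed. The array values carry no genome build. Before scaling, probe sets above the floor in both samples had a median log2 ratio of -0.13, and factors of 1.05 (old) and 0.956 (young) set it to 0. The floor was the median of non-control probe sets.

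The members and lists were chosen with earlier results of these data known. Named genes were the members above the floor in at least 1 sample, and those at 2-fold or more were described one by one. Genes of the other lists were chosen as examples after their values were seen. The procedure was tested on simulated data, with differences planted and scored only in probe sets well above the floor. Calls that rest on the floor were not tested in this way. Python 3.11.15, numpy 2.4.6, pandas 2.3.3, statsmodels 0.14.6 and matplotlib 3.10.9 were used. The alternatives changed the scaling, the floor, the choice of probe sets, the treatment of low values and the size rule. RNA quality was checked by the 3' to 5' signal ratio, which for Actb was 1.32 (old) and 1.20 (young) and for Gapdh 0.718 and 0.806.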

Additional observations from a re-analysis of the deposited data

How the results depend on the processing

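The count of 22 collagen genes 2-fold or more higher in the old sample ranged from 19 to 26 with the values as deposited, quantile normalization, loess, the lower floor (25th percentile), the mean over probe sets, no shared-sequence probe sets and an offset of 0.5 of the floor. It was 15 with a 3-fold rule. It was 12 with the higher floor (75th percentile) and 10 among genes above the floor in both samples, an alternative chosen after seeing the data; both settings measure fewer genes (28 and 24 in place of 42). The count of 5 in the young sample was 3 with the higher floor and from 4 to 7 otherwise. The median of 1.13 ranged from 0.73 to 1.18. On the values as deposited the median of all genes shifted from 0.03 to -0.09. Of 346 gene values recomputed, 0 called values changed sign and 48 moved by more than the spread between probe sets. The median of fibril-forming chains, 3.40, was 1.69 with the higher floor and 2.28 among genes above the floor in both samples. The median of lysyl oxidases was -1.11 among genes above the floor in both samples, where only Loxl3 and Loxl4 remain, against 2.20. The median of prolyl hydroxylases was -0.02 on the values as deposited and that of transmembrane chains -0.07 with the higher floor. Of the 27 called genes, 19 kept their side of 2-fold in every setting that measured them. The exceptions were Col14a1, Col4a3, Col4a6 and Plod2 (with the mean over probe sets), Col14a1 also with the offset, Col4a6 also with quantile normalization (0.90) and the offset (0.87), and Col27a1, P3h2, P3h3 and Loxl4 with the higher floor. Col12a1, Col17a1 and Col8a2 were 2-fold or more higher in the old sample with the lower floor and with the offset, Col12a1 also with the mean over probe sets, and Col11a2 in the young with the lower floor. No paired analysis was possible because each group had 1 array.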

Other observations

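Loxl2, a lysyl oxidase-like gene known from endothelial basement membranes, was not among the members because both of its probe sets carry a second symbol, Gm21451, in the annotation. One had signals of 4626 in the old and 6246 in the young sample, 1.35-fold higher in the young. The other had 380 and 900, 2.37-fold higher in the young sample. These probe sets were looked at after the values of the family were known, and they cannot tell the genes apart.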
